A study of Arabidopsis thaliana with 7 samples.

Results

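Touch-induced calmodulin-like genes encode small proteins that bind calcium through EF-hands and pass a rise of calcium in the cell on to other proteins. The set described here holds 10 such genes of Arabidopsis thaliana, of which 9 had a row among the 21184 genes of the deposited table. The members are TCH2, TCH3, CML23, CML37, CML38, CML39, and 4 further EF-hand genes (AT4G27280, AT2G46600, AT5G39670 and AT3G29000). They were chosen by family name together with their difference between tt4-11 and Col-0 in these same libraries, so their values in that contrast are given as a description, with no p-value, and their count of calls is printed beside the background only. CML38 (AT1G76650) had no row, and its expression was not analysed here.

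RNA sequencing compared tt4-11, which the labels call a null line for chalcone synthase (TT4, the first enzyme of flavonoid synthesis), with the wild type Col-0. The table held 7 libraries: the 4 of Col-0 carry replicate numbers 1 to 4 and the 3 of tt4-11 numbers 2 to 4. Values per library are listed in the order of these numbers. All were made from polyA RNA of whole seedlings 5 days after germination, grown on agar with 2% sucrose at 22 °C in continuous light of about 100 µE, conditions known to favour flavonoid production. No touch or other mechanical treatment is named in the labels. They also do not say whether replicates came from separate sowings, so p-values measure the spread between these libraries, which may be technical. The tt4-11 plants are a single mutant line.

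Calmodulins are the textbook calcium sensors of plant cells, and the calmodulin-like (CML) proteins are their diverged relatives. The TCH genes of Arabidopsis were found as transcripts that accumulate within minutes of touch, rain or wind. TCH1 is a calmodulin, TCH2 and TCH3 are calmodulin-like, and TCH4 is an enzyme that remodels xyloglucan in the cell wall. Several CML transcripts also rise after wounding, cold or pathogen attack, and proteins of the CAMTA family, which bind CGCG-type sites, take part in such rapid responses.

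Values are scaled reads, that is reads divided by a factor per library, so that 1 read was worth between 0.921 and 1. Reads summed over the genes of the table lay between 2021368 and 2205449 per library. TT4 was at 2800 ± 330 scaled reads in Col-0 (SD, n = 4) and at 69.9 ± 23.3 in tt4-11 (SD, n = 3), a log2 difference of -5.34 with a limma adjusted p of 2.99e-12. The shoot markers LHCB1.3, RBCS1A and CA1 and the root markers PYK10, PRP3 and EXPA7 were present in every library. In each list 0 of 3 passed the test and 0 of 3 had a positive log2 difference. The unadjusted limma p was under 0.05 for EXPA7 alone. EXPA7 was at 17.7 ± 2.93 in Col-0 and 9.38 ± 2.72 in tt4-11 (SD), a log2 difference of -0.87 (limma adjusted p = 0.0691). Every tt4-11 library of EXPA7 was below every Col-0 library. The seed storage genes CRA1 and CRC were at or near 0, and SESA1 ranged from 8 to 129 scaled reads with a log2 difference of 1.23 (limma adjusted p = 0.14). Leaving out 1 library moved the difference of SESA1 to between 0.64, without tt4-11 replicate 2, and 1.98, without tt4-11 replicate 4, where it passed (0.0188). It was 0.75 without Col-0 replicate 4. Its part in the results for the members was not tested. In whole seedlings, fewer cells of a type and less RNA per cell cannot be told apart.

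The promoters of TCH2 and CML23 are shown because these close relatives share a run of letters and CGCG cores, and that of CML45 because it is the one further member promoter with the hexamer TGACGT. Each holds the 250 bases before the annotated gene start, 5′ to 3′ on the strand of the gene, read from the TAIR10.1 genome. Capitals mark CGCG, and TGACGT or its complement ACGTCA. TCH2 lies at chr5:14999620-14999869 on the minus strand, CML23 at chr1:24771394-24771643 on the minus strand, and CML45 at chr3:11005388-11005637 on the plus strand.
TCH2: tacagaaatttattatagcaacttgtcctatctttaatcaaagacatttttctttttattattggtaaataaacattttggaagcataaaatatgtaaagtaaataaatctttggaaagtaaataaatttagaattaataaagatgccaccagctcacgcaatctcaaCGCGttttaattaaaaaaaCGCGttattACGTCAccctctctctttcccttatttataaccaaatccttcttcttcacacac
CML23: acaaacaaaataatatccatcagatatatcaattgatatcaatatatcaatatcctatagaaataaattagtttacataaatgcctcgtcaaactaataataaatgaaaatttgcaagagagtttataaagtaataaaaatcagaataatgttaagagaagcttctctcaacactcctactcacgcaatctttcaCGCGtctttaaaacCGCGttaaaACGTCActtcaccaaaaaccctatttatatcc
CML45: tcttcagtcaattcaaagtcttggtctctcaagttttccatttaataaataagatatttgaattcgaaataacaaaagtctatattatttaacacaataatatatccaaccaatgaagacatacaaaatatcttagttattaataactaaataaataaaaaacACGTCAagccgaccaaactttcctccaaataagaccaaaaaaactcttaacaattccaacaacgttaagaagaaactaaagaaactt

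The CGCG core stood at -82 and -63 from the start of TCH2 and at -55 and -41 from that of CML23. CGCG was found in 10.1% of 27443 promoters of the same length and in 2 of the 10 members. The longer CGCGTT, known as the rapid stress response element, was searched on both strands and overlaps the CGCG matches. It was found in 711 promoters, or 2.59%, and in the same 2 members. TGACGT, a core of bZIP factor sites that was searched after the sequences had been seen, stood in 7.69% of all promoters and in 3 members, at -54 in TCH2, -32 in CML23 and -87 in CML45. The run ctcacgcaatct, of 12 bases, was the longest that the promoters of TCH2 and CML23 shared on the same strand, at -97 and -71, and it occurred in 2 of the 27443 promoters. TTGACC, one form of the W-box, was found in CML38 alone among the members, against 12.2% of all promoters. Other forms of the W-box, such as TTGACT, were not searched. CACGTG (G-box) and GCCGCC (GCC-box) were in 0 member promoters, against 6.49% and 1.87% of all. These are letter matches in one window and show no binding. The shared run was taken from the promoters of TCH2 and CML23, so its count could not be below 2.

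TCH2 and CML23 are the pair of members most alike in protein sequence. TCH2 (CML24, AT5G37770) has roles in ion and hormone responses and in flowering time, and CML23 (AT1G66400) acts with it in flowering. Their annotated proteins hold 161 and 157 residues, each with 4 EF-hand loops by pattern search. Identical positions made up 76.4% of the length of the shorter protein. TCH2 lies at chromosome 5, 14997514 to 14999619, on the minus strand (TAIR10.1), and CML23 at chromosome 1, 24770419 to 24771393, on the minus strand as a single exon.

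TCH2 was at 103, 166, 95.1 and 184 scaled reads in the Col-0 libraries and at 256, 265 and 323 in those of tt4-11. Every tt4-11 library stood above every Col-0 library. Its mean of 137 ± 44.6 in Col-0 (SD, n = 4) compared with 281 ± 36.0 in tt4-11 (SD, n = 3), a log2 difference of 1.08 with SE 0.20. CML23 was at 5.73, 41.3, 18.4 and 36 scaled reads in Col-0 and at 74.9, 78.2 and 59.7 in tt4-11. The groups again did not overlap, and the Col-0 libraries differed among themselves by more than those of tt4-11. The means were 25.4 ± 16.3 and 70.9 ± 9.87, a log2 difference of 1.75 with SE 0.44. Pooled over libraries, TCH2 had 563 reads in Col-0 and 897 in tt4-11, a ratio of 2.05 after scaling, with an exact 95% interval of 1.85 to 2.29 that covers counting error only. For CML23 that ratio was 2.81, with an interval of 2.22 to 3.58 from 104 and 227 reads. Per kilobase of transcript, TCH2 was at 78.9 scaled reads in Col-0 and 162 in tt4-11, and CML23 at 26.1 and 72.7, so the level of TCH2 was the higher of the pair in both genotypes.

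TCH3 (CML12, AT2G41100; chromosome 2, 17137037 to 17139700, plus strand) encodes a protein of 324 residues with 6 EF-hand loops by pattern search, the longest of the set. It is known to bind the protein kinase PINOID, a regulator of auxin transport. TCH3 was at 0.955, 1.92, 0 and 2 scaled reads in Col-0 and at 7.49, 8.29 and 10.6 in tt4-11. The groups did not overlap, but the values rest on 5 reads in Col-0 and 28 in tt4-11, and TCH3 did not pass the filter on low values. The scaled ratio of pooled reads was 7.22, with a counting interval of 2.75 to 24. TCH3 has 7 annotated transcript models and 1 of them had a row. Across the table the median level fell with the number of annotated models, from 37.6 scaled reads for genes with 1 model to 5.05 for genes with 4 or more, and how far this sets the level of TCH3 was not tested.

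CML37, CML38 and CML39 form a second related group. CML37 (AT5G42380; chromosome 5, 16942447 to 16943820, minus strand) takes part in responses to herbivores and drought, CML38 (AT1G76650; chromosome 1, 28766750 to 28768138, minus strand) in the response to low oxygen, and CML39 (AT1G76640; chromosome 1, 28765254 to 28765866, minus strand) in early seedling growth. CML38 and CML39 are neighbours 883 bases apart with proteins that are identical at 71.1% of the length of the shorter one. CML37 was identical to CML38 at 51.4% and to CML39 at 49.7%. Each of the 3 proteins had 3 EF-hand loops by pattern search.

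CML37 was at 0, 0.961, 0 and 0 scaled reads in Col-0 and at 5.61, 10.1 and 8.67 in tt4-11. It had a single read over all Col-0 libraries and 26 reads over those of tt4-11, and so did not pass the filter. The scaled ratio was 33.5, with a counting interval of 5.51 to 1370. CML39 was at 1.91, 2.88, 0.970 and 12 scaled reads in Col-0 and at 12.2, 17.5 and 10.6 in tt4-11. Col-0 replicate 4 lay above tt4-11 replicate 4, so CML39 was the one measured member whose groups overlapped. Mean CML39 was 4.44 ± 5.10 in Col-0 and 13.4 ± 3.62 in tt4-11 (SD), a log2 difference of 1.78 with SE 0.55. Its 18 and 43 reads gave a ratio of 3.08, with a counting interval of 1.74 to 5.67.

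KIC and KRP1 are shorter proteins with a single EF-hand loop by pattern search. KIC (AT2G46600; chromosome 2, 19136019 to 19136600, plus strand) binds and inhibits the kinesin KCBP, which shapes leaf hairs. KRP1 (AT4G27280; chromosome 4, 13663415 to 13664621, minus strand), also called CMI1, is known from auxin responses in roots. Their proteins hold 135 and 130 residues and were identical at 41.5% of the length of the shorter one. KRP1 was closer to PBP1, a PINOID-binding EF-hand protein outside the set, at 81.9%. Such similar genes can share reads, and how the deposited counting treated shared reads is not given in the sources used here.

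KIC was at 52.5, 112, 81.5 and 148 scaled reads in Col-0 and at 152, 160 and 172 in tt4-11. The lowest tt4-11 library stood just above the highest Col-0 library. The means were 98.6 and 162, with coefficients of variation of 41.6% and 6.19%, and the log2 difference of 0.81 (SE 0.24) was the smallest among the 9 measured members, and it was 0.54 without Col-0 replicate 1. KRP1 was at 12.4, 44.2, 15.5 and 33 scaled reads in Col-0 and at 81.4, 88.4 and 93.4 in tt4-11. Its groups were well apart. The means were 26.3 ± 15.0 and 87.7 ± 6.03, a log2 difference of 1.87 with SE 0.32. The ratios of pooled reads were 1.65 for KIC, with a counting interval of 1.44 to 1.88, and 3.34 for KRP1, with an interval of 2.67 to 4.21. Per kilobase, KIC had the highest level of the set, at 169 scaled reads in Col-0 and 278 in tt4-11. KIC has 1 annotated model, and the part of model number in this rank was not tested.

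AT5G39670 and AT3G29000, named CML46 and CML45 in the file, are single-exon genes. Their proteins were identical at 60.8% of the length of the shorter one. CML46 (chromosome 5, 15883179 to 15884067, plus strand) is known as a repressor of salicylic acid accumulation. The pattern search found 1 EF-hand loop in CML46 and 2 in CML45 (chromosome 3, 11005638 to 11006514, plus strand).

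CML46 was at 0, 7.69, 5.82 and 9 scaled reads in Col-0 and at 18.7, 18.4 and 22.1 in tt4-11. CML45 was at 0.955, 8.65, 2.91 and 10 scaled reads in Col-0 and at 18.7, 37.8 and 32.7 in tt4-11. Neither gene's groups overlapped, and for both Col-0 replicate 1 was the lowest library. CML46 had a mean of 5.63 ± 3.97 in Col-0 and 19.8 ± 2.08 in tt4-11, a log2 difference of 2.07 with SE 0.61. Without Col-0 replicate 1, which had 0 reads, it was 1.3. CML45 had means of 5.63 ± 4.38 and 29.7 ± 9.87, a log2 difference of 2.47 with SE 0.51. The scaled ratios were 3.53 for CML46 (23 and 63 reads, counting interval 2.16 to 5.97) and 5.33 for CML45 (23 and 95 reads, counting interval 3.35 to 8.80).

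**Figure D1:**
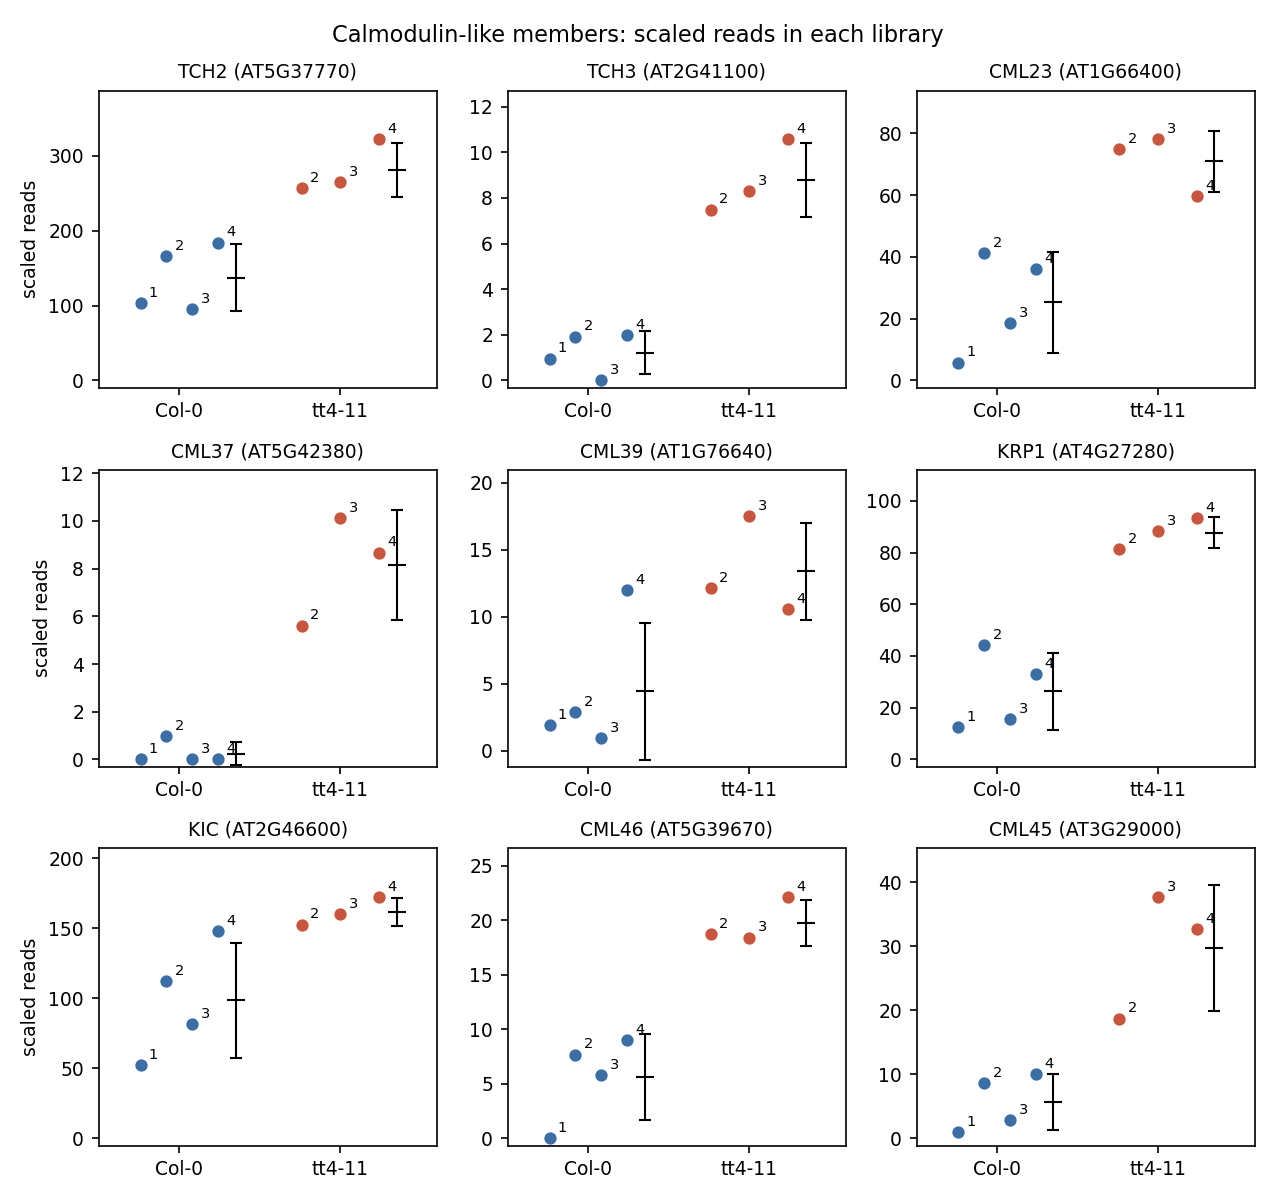
Scaled reads (y axis) of the 9 measured members in each Col-0 (blue) and tt4-11 (red) library, with replicate numbers beside the points and the mean ± SD at the right of each group; y axes differ between panels. For all members but CML39 every tt4-11 point lies above every Col-0 point. The Col-0 points spread more widely relative to their mean, and the part of their lower read numbers in this was not tested.

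Of the 10 members, 9 were measured and 7 passed the filter on low values. All 7 were called higher in tt4-11 and 0 lower, by limma with Benjamini-Hochberg adjusted p under 0.05 over 13301 tested genes. Over all tested genes 13.6% were called, and 7.07% were called higher, with a median log2 difference of -0.01. Since the members were chosen on this contrast, nothing is read from their count. Mean Col-0 values of CML39 (4.44), CML45 (5.63) and CML46 (5.63) were below the minimum count of 10. These genes passed the filter through their tt4-11 libraries, which favours calls of a rise. In 8 of the 9 measured members every tt4-11 library was above every Col-0 library, a pattern that 9.89% of all genes in the table showed.

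Per kilobase of transcript, the Col-0 levels ran from KIC at 169 scaled reads through TCH2 at 78.9, CML23 at 26.1 and KRP1 at 21.8 to CML39 at 7.24. CML45 at 6.42 and CML46 at 6.33 were next, followed by TCH3 at 0.974 and CML37 at 0.175. In tt4-11 KIC (278) and TCH2 (162) were again the highest. CML23 and KRP1 were both at 72.7 there, and CML45 at 33.9, CML46 at 22.3 and CML39 at 21.9 followed, with TCH3 at 7.02 and CML37 at 5.92 last. In Col-0 the ranges of neighbours in this order overlapped, except that TCH2 was above CML23 throughout. Read within each Col-0 library, KIC was also above TCH2 every time, and KRP1 above CML39. In tt4-11 there was no overlap between KIC and TCH2, TCH2 and CML23, KRP1 and CML45, or CML39 and TCH3. The ranges of the other neighbours overlapped there, although CML45 was above CML46 within each tt4-11 library. Annotated models numbered 1 for KIC, 2 for TCH2 and 7 for TCH3, and the part of model number in this order was not tested.

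The members also varied together among the wild-type libraries. Col-0 replicates 1 and 3 were both below replicates 2 and 4 in 8 of the 9 measured members, CML37 being the exception with 1 read in all. That order held for 17.6% of all genes in the table. Replicate 1 was the lowest Col-0 library for 5 members and replicate 3 for 3, with 1 tie, while replicate 4 was the highest for 6 and replicate 2 for 3. Replicates 1 and 3 also had the most reads in the table of the Col-0 libraries, 2205449 and 2118112 against 2099876 and 2021368. The part of this total in the order was not tested. The relative spread was larger in Col-0 than in tt4-11 for each of the 9 members. The share of all genes with that order is not given here. Fewer reads raise the relative spread by counting error alone, and CML37 and TCH3 had 1 and 5 reads in Col-0. The part of read number in this spread was not tested. The coefficient of variation was 32.5% against 12.8% for TCH2, 64.4% against 13.9% for CML23 and 57.0% against 6.87% for KRP1. Among tt4-11 libraries, replicate 2 was the lowest for 6 members and replicate 4 the highest for 5. Shares over all genes for the lowest and highest library of each genotype are not given here, so nothing is read from these counts. Relative to each gene's Col-0 mean on the log2 scale, the median over the members was -0.80, 0.73, -0.45 and 0.68 in the Col-0 libraries and 1.83, 1.98 and 1.97 in those of tt4-11.

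Outside all the gene lists, the 5 tested genes closest to that median profile were AT1G07135, RDUF1, ERF5, AT2G22880 and AT1G66500. Likeness was the root mean square difference over the 7 libraries on the log2 scale, and it was between 0.18 and 0.20 for these 5. RDUF1 (AT3G46620) is a ubiquitin ligase of stress responses, and ERF5 (AT5G47230) is a transcription factor of ethylene, chitin and stress responses. ERF5 was at 45.9, 109.6, 36.9 and 93 scaled reads in Col-0 and at 227, 290 and 234 in tt4-11. RDUF1 was at 133, 299, 173 and 319 scaled reads in Col-0 and at 929, 821 and 688 in tt4-11. In both genes Col-0 replicates 1 and 3 were again the lower pair, as the choice by likeness to the members selects for. The log2 differences of the 5 genes lay between 1.70 and 1.93, and since likeness covered both genotypes these are also a description.

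**Figure D2:**
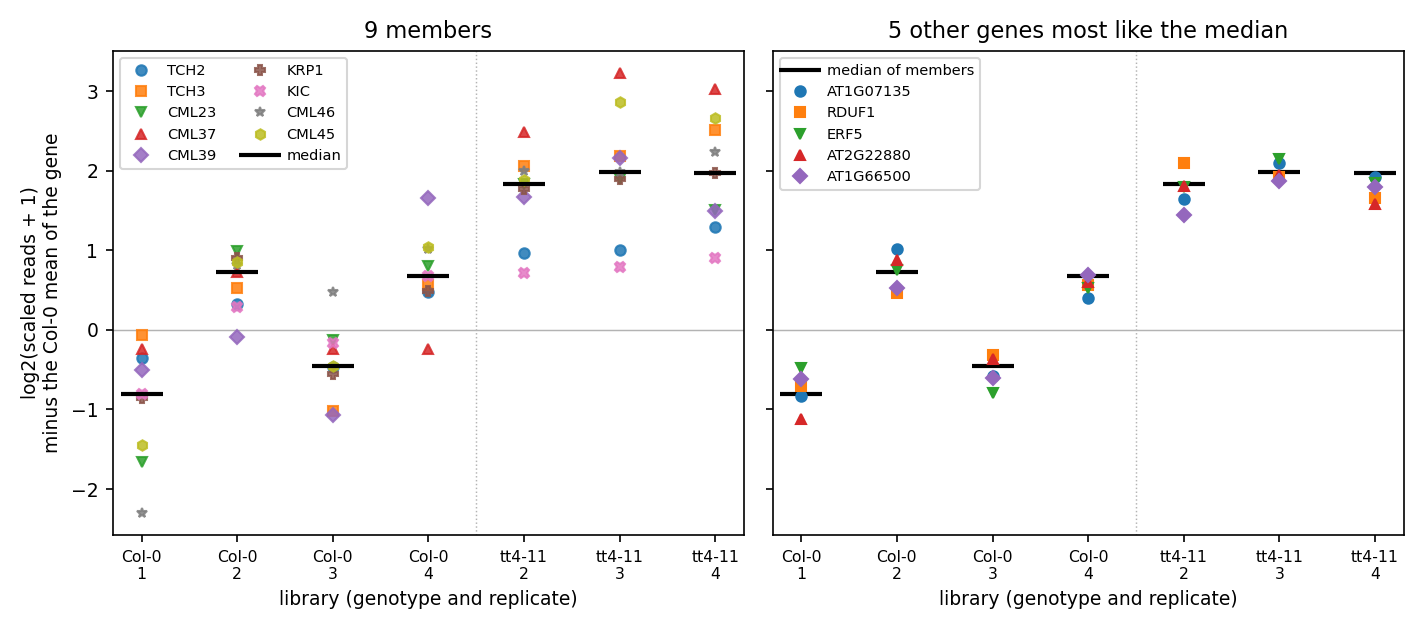
Log2(scaled reads + 1) minus the Col-0 mean of the gene (y axis) in each library (x axis), for the 9 members (left) and for the 5 other genes most like their median (right); black bars mark the median of the members. The median is -0.80 and -0.45 in Col-0 replicates 1 and 3, 0.73 and 0.68 in replicates 2 and 4, and between 1.83 and 1.98 in tt4-11.

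TCH2, CML23 and TCH3 lie beside calmodulin genes on the same strand. TCH2 is separated from CAM1 by 4846 bases, CML23 from CAM4 by 2719 and TCH3 from CAM2 by 482, while CML10 lies 37 bases from TCH3 on its other side. CAM2, the calmodulin known as TCH1, was at 3.82, 4.81, 0.970 and 3 scaled reads in Col-0 and at 10.3, 10.1 and 7.70 in tt4-11. Its groups did not overlap, and it had too few reads to pass the filter. With 4 against 3 libraries, the exact two-sided permutation test gave p = 0.0571 for CAM2, the smallest this design allows, and 0.171 after adjustment over the 3 calmodulin neighbours. CAM1 was at 3.89 ± 1.15 in Col-0 (SD, n = 4) and 2.79 ± 2.41 in tt4-11 (SD, n = 3), with an exact permutation p of 0.343. CAM4 was at 5.12 ± 1.33 (SD, n = 4) and 5.61 ± 2.37 (SD, n = 3), with an exact permutation p of 0.857. CML10, a regulator of ascorbate synthesis, was at 184 ± 34.9 and 193 ± 18.4, a log2 difference of 0.08 (SE 0.14; limma adjusted p = 0.744). CAM1 and CAM4 have 4 annotated models each and CAM2 has 2, and the part of model number in their low levels was not tested.

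**Figure D3:**
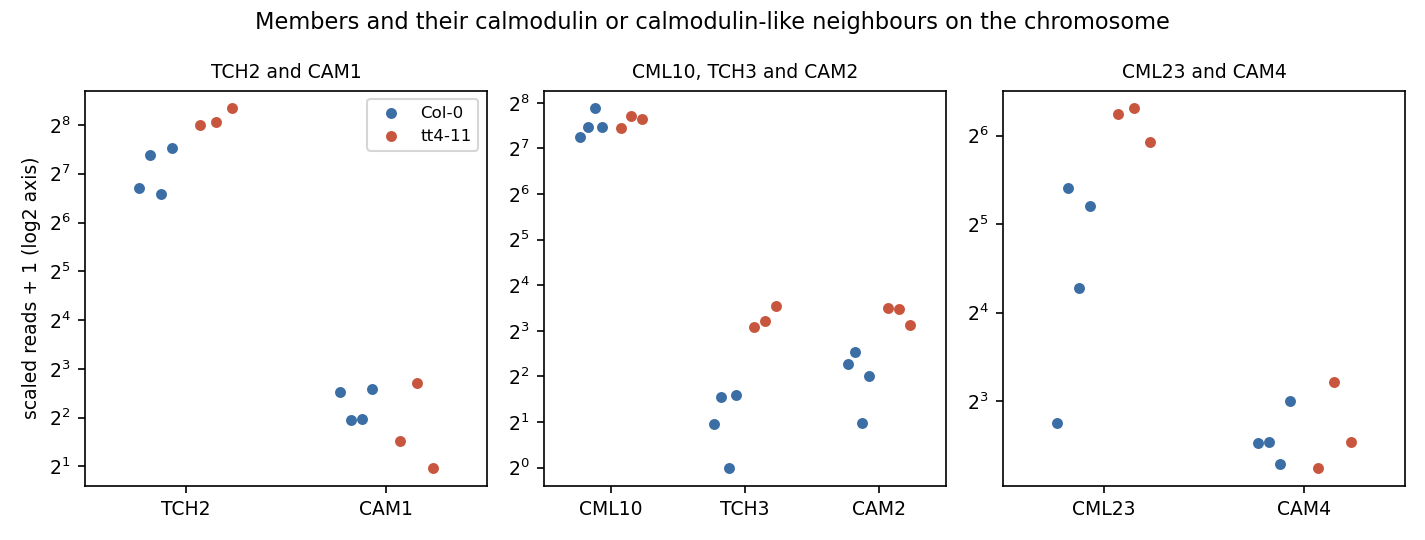
Scaled reads + 1 on a log2 axis for 3 members and the calmodulin or calmodulin-like genes next to them, one point per library (blue Col-0, red tt4-11). CAM2, like TCH3, has no overlap between the groups, whereas CAM1, CAM4 and CML10 overlap.

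TCH4, the cell wall enzyme of the original touch genes, rose. It was at 38.2, 79.8, 71.8 and 89 scaled reads in Col-0 and at 264, 262 and 330 in tt4-11. The log2 difference was 2.08 (SE 0.22; limma adjusted p = 1.85e-05), and all 3 tt4-11 libraries were above all 4 of Col-0. As for the members, Col-0 replicates 1 and 3 were below replicates 2 and 4.

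Among the other CML genes and PBP1, 33 of 43 were in the table and 18 were tested. Over all tested genes 7.07% were called higher. CML5, CML16 and PBP1 rose, 0 fell and 15 did not pass the test. Without Col-0 replicate 4, 5 rose and 1 fell. The median log2 difference of the 18 was 0.10 against -0.01 over all tested genes. The members, chosen partly for their rise, are left out of this list, which lowers its count of rises and its median. The list is therefore no measure of how members differ from the rest of the family. CML5, also named MSS3, was at 68.8, 73.0, 63.1 and 95 scaled reads in Col-0 and at 170, 219 and 242 in tt4-11. No tt4-11 library overlapped with Col-0. The log2 difference of CML5 was 1.48 (SE 0.16; limma adjusted p = 2.52e-05). CML16 rose from 54.4 ± 12.5 to 97.0 ± 10.3, a log2 difference of 0.85 (SE 0.18; limma adjusted p = 0.00697). PBP1, the relative of KRP1, was at 17.2, 24.0, 9.70 and 24 scaled reads in Col-0 and at 32.8, 47.0 and 41.4 in tt4-11, a log2 difference of 1.13 (SE 0.29; limma adjusted p = 0.0176). Its call was lost without tt4-11 replicate 3 (0.0896) or 4 (0.0658). In all 3 called genes, and in 8 of the 18 tested, Col-0 replicates 1 and 3 were below replicates 2 and 4.

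Calmodulins and CBL proteins, the latter sensors that work with CIPK kinases, had 7 of 15 measured genes tested. Of these, 1 rose and 6 did not pass, beside 7.07% of all tested genes that rose. CBL10, which acts in salt tolerance, went from 39.5 ± 5.65 to 60.7 ± 9.83, a log2 difference of 0.61 (SE 0.19; limma adjusted p = 0.0419). The call was lost without any one of Col-0 replicates 2 or 4 (0.0741 and 0.0888) and tt4-11 replicates 3 or 4 (0.174 and 0.147), and with DESeq2 (0.0766), no filter (0.0574) or the highest model per gene (0.0883). Of 21 tested calcium-dependent protein kinases, which join an EF-hand sensor to a kinase in one protein, CPK32 alone rose and 20 did not pass. CPK32, a kinase of abscisic acid signalling, went from 105 ± 17.7 to 191 ± 17.1, a log2 difference of 0.87 (SE 0.14; limma adjusted p = 0.00103).

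Of 17 tested calcium channels and transporters, 3 rose, 0 fell and 14 did not pass, with a median log2 difference of 0.13. Over all tested genes 7.07% rose, and the median was -0.01. ACA11, a calcium pump of the vacuole, rose from 440 ± 20.1 to 575 ± 43.4, a log2 difference of 0.39 (SE 0.10; limma adjusted p = 0.0176). GLR3.3, a glutamate receptor-like channel of wound signalling, rose from 173 ± 12.2 to 236 ± 33.4, a log2 difference of 0.43 (SE 0.12; limma adjusted p = 0.0273). CAX2, a vacuolar exchanger, rose from 94.4 ± 14.7 to 130 ± 1.83, a log2 difference of 0.47 (SE 0.14; limma adjusted p = 0.0393). With the trend of the differences on transcript length removed, ACA11 went to a log2 difference of 0.15 (limma adjusted p = 0.375) and GLR3.3 to 0.26 (0.194), while CAX2 was at 0.40 (0.0874). Each call was also lost without tt4-11 replicate 3 (0.106, 0.0696 and 0.126) or 4 (0.0608, 0.167 and 0.107). GLR3.3 was lost without Col-0 replicate 3 (0.0680), and CAX2 without Col-0 replicate 1 (0.0613) or 3 (0.101), without tt4-11 replicate 2 (0.105), with DESeq2 (0.0718) and with no filter (0.0526).

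Of 11 tested calmodulin-binding regulators, among them the CAMTA factors and the CBP60 family, 0 were called by limma, edgeR or DESeq2. By voom 1 was called, and 2 had an unadjusted limma p under 0.05. Over all 13301 tested genes limma called 13.6%, and 3898 had an unadjusted p under 0.05. CBP60F was at 8.79 ± 4.62 in Col-0 and 18.8 ± 3.24 in tt4-11. The log2 difference was 1.13 (SE 0.38, limma adjusted p = 0.0580). The adjusted p was 0.0401 with voom and 0.0197 without Col-0 replicate 4. The Col-0 mean of CBP60F was below the minimum count of 10, and only replicate 4, at 15 scaled reads, was above it. CBP60F thus passed the filter through its tt4-11 libraries, which favours calls of a rise. No rise of CBP60F is therefore read from these p-values. CAMTA4 was at 137 ± 13.6 and 179 ± 25.9, a log2 difference of 0.38 (SE 0.13; limma adjusted p = 0.0671). Of the proteins known to bind members, 2 were tested. PINOID, which TCH3 is known to bind, did not pass. It was at 27.7 ± 4.03 and 29.4 ± 5.02, a log2 difference of 0.08 (SE 0.22; limma adjusted p = 0.842). SGS3, an RNA silencing factor that CML38 is known to bind, fell from 82.9 ± 21.9 to 53.3 ± 3.06, a log2 difference of -0.60 (SE 0.18; limma adjusted p = 0.0387). The call of SGS3 was lost without Col-0 replicate 1 (0.0831) or 2 (0.0515) and without tt4-11 replicate 2 (0.112), 3 (0.120) or 4 (0.0783).

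**Figure D4:**
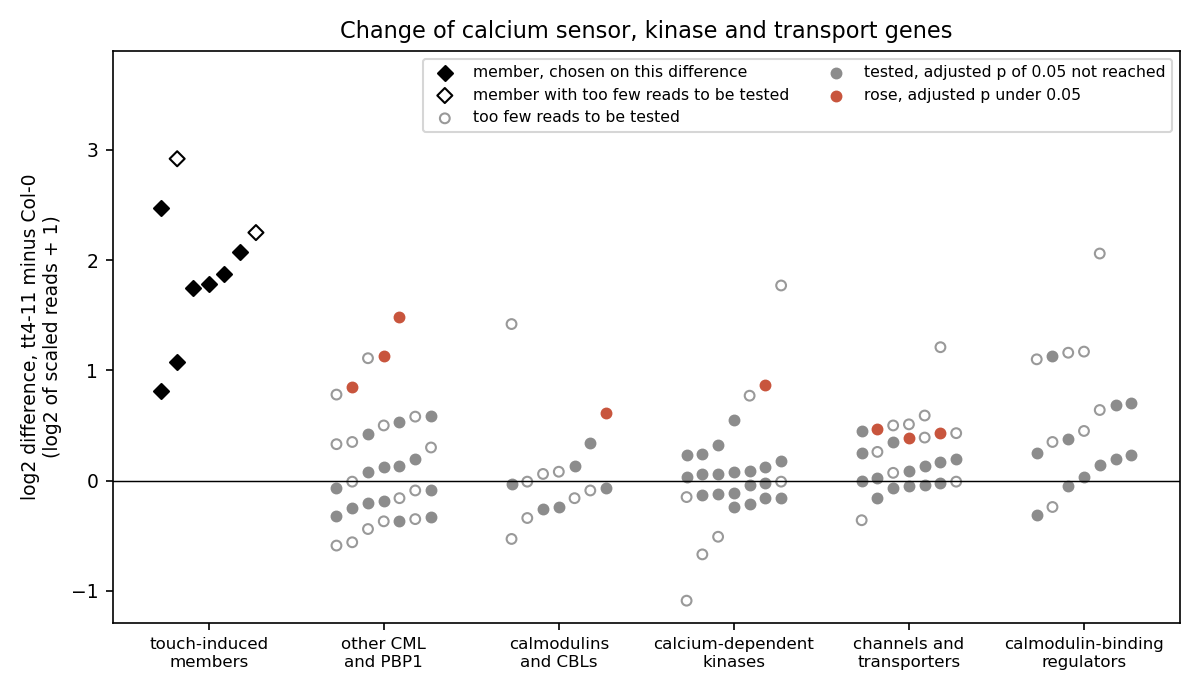
Log2 difference of log2(scaled reads + 1), tt4-11 minus Col-0 (y axis), for each gene of 6 lists (x axis); black diamonds are members, red points rose at adjusted p under 0.05, grey points did not pass and open symbols had too few reads to be tested. The members lie between 0.81 and 2.92, and in the other lists 3 CML genes, 1 CBL gene, 1 kinase and 3 transport genes rose. Members were chosen partly on this difference and are left out of the other lists, so their distance from these is set by the choice.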

How the data were processed

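Seedling RNA was sequenced as single reads from stranded, polyA-enriched libraries, per the labels' protocols. The submitters' processing notes name TopHat2, HISAT2, HTSeq and DESeq2, with no versions or roles, and the genome build is not given in the sources used here. Each row of the deposited table is a transcript model, with values in a signal unit of scaled reads for 6 libraries and in whole counts for Col-0 replicate 4. All deposited signal values were whole multiples of 1 step per library within 0.01, so whole reads were recovered. Of 23052 rows, 1 repeat was dropped, and 23051 models were summed to 21184 genes, of which 20891 matched the TAIR10.1 annotation. The protocols state 4 libraries per genotype; tt4-11 replicate 1 was not analysed here.

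The main test was limma 3.58.1 (R 4.3.3, trended variance) on log2(scaled reads + 1), with genes kept by filterByExpr of edgeR 4.0.16 at a minimum count of 10 and Benjamini-Hochberg adjustment. The added 1 makes differences of low genes smaller: CML46 was at 2.07, and at 2.96 with a pseudocount of 0.1. Yet for each tested member the main difference was above that of edgeR on recovered reads, which was 1.8 for CML46. The printed differences of low genes can thus lie on either side of other estimates. The filtered table of recovered reads was also tested with edgeR, voom and DESeq2 1.42.0. Alternatives were another pseudocount, filter and normalization, the highest model per gene, a replicate block, stricter thresholds, removal of a length trend and leaving out each library. The code was tested on simulated data. Protein identity came from global alignment (Biopython 1.88), as identical positions over the length of the shorter protein. EF-hand loops came from the PROSITE pattern. Same-numbered libraries of the genotypes did not deviate together. Members and gene lists were chosen with earlier results of these data known. Named genes were all members, the TCH genes, calmodulin or CML genes within 10 kb of a member, up to 5 called genes with the lowest p per list (with none called, the 2 lowest), and the 5 genes most like the members. PINOID was named as the other tested protein known to bind a member.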

Additional observations from a re-analysis of the deposited data

Results flagged for a closer look

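Among members measured in the 4 Col-0 libraries, CML37 and CML46 had a library far from the others. For CML37 replicate 2 held the single Col-0 read and the other 3 libraries were at 0, so its gap to the nearest library was the whole range (a Dixon ratio of 1). For CML46 replicate 1 was at 0 while the others lay between 5.82 and 9 scaled reads, a ratio of 0.834. Chance flags about 1 in 20 groups of continuous, normal values. That rate does not cover sparse counts, and both genes rest on few Col-0 reads, 1 and 23. A single read over the Col-0 libraries gives a ratio of 1 in whichever library it falls.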

How the results depend on the processing

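The log2 difference of each of the 7 tested members kept its sign under every alternative and moved by less than 1 SD of its libraries about their group means (log2 scale, unmoderated): TCH2 between 0.93 and 1.24, CML23 1.19 and 2.08, CML39 1.42 and 2.33, KRP1 1.59 and 2.18, KIC 0.54 and 1.03, CML46 1.3 and 2.96, and CML45 1.99 and 2.82. Of members called, 7 became 3 at an adjusted p of 0.01 and 3 with DESeq2, and leaving out 1 library gave 3 to 7 (3 without tt4-11 replicate 2 or 3, 4 without replicate 4). The 1811 called genes became 708 at 0.01 and 348 with a log2 change of at least 1, and 896 to 1782 without 1 library. The 3 other CML genes became 5 with the length trend removed and 2 to 6 without 1 library. The 1 calmodulin or CBL gene became 0 at 0.01, with a change of at least 1, with DESeq2, with no filter and with the highest model, and 0 to 1 without 1 library. The 1 kinase became 0 with a change of at least 1 and 2 with no filter (1 to 2 without 1 library). The 3 transport genes became 0 at 0.01, with a change of at least 1 and with the length trend removed (0 to 3 without 1 library). The 0 regulators became 1 with voom, no filter, a filter at a minimum of 10 and the highest model (0 to 1 without 1 library). The 1 binding protein became 0 at 0.01, with a change of at least 1 and with the block (0 to 1 without 1 library). Deviations of same-numbered libraries correlated at 0.06, 0.02 and 0.06, so the numbers were not taken to pair libraries; the replicate block gave 1665 called genes and 6 called members, and SGS3 and CAX2 were not called with it (0.0909 and 0.0696). SESA1 passed with the block (0.00518). More called genes rose than fell, 940 against 871, but fewer with the length trend removed (664 against 729) or without tt4-11 replicate 4 (426 against 470). No called gene named here changed sign; CA1, not called, went from -0.09 to 0.06 without Col-0 replicate 2. The cause of these changes was not tested. TCH3 and CML37 rest on few reads.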
